A study of Mus musculus with 10 samples.

Results

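Small nucleolar RNAs (snoRNAs) and microRNAs appear as genes of their own in the count table of this series, although all but Mir17hg, a host transcript, stand for a short RNA cut out of a longer one. The genes described here were selected on their symbol and their measured totals. They are those whose symbol begins with Snord or Snora and a digit, with Mir and a digit, or with Mirlet, and whose raw counts summed over all 10 libraries reached 50. There were 96 such genes among 23337 in the table, namely 46 box C/D snoRNAs (Snord), 26 box H/ACA snoRNAs (Snora) and 24 microRNA genes. They came from 74, 36 and 662 genes of those names with any total. Of the 96, 85 reached 50 counts without the Flk1-positive libraries, made up of 42 box C/D snoRNAs, 24 box H/ACA snoRNAs and 19 microRNA genes. The total of the last gene inside the limit was 50 for both Mir343 and Snord88a, and just outside it were Mirlet7d with 45, Snora34 with 44 and Mir377 with 42 counts.

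The samples are mouse embryoid bodies, aggregates of differentiating embryonic stem cells, of the iHA-Etv2 line, whose HA-tagged Etv2 transgene is induced by doxycycline. Etv2 is a transcription factor of the ETS family that blood and endothelial precursors need. The 5 groups of 2 libraries were doxycycline-treated and Flk1-positive at day 2.5, doxycycline-treated at day 2.5, untreated at day 2.5, doxycycline-treated at day 2 and untreated at day 2, all of the same line. Flk1 is the receptor encoded by Kdr, and the labels do not say whether the 8 libraries marked as not Flk1-positive came from unsorted cells or from sorted negative ones. RNA was taken as total RNA on spin columns, and how the libraries were selected (for polyadenylated RNA or otherwise) is not given in the sources used here. Columns of this kind favour long RNA, so a short RNA is counted in an unknown share. Nothing in the labels gives separate cultures for the 2 libraries of a group, and p-values then reflect the spread of these samples alone, technical spread included. In bulk samples a change in the share of a cell type and a change in RNA per cell cannot be told apart.

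Box C/D snoRNAs guide 2′-O-methylation of ribosomal RNA and work in a particle with fibrillarin (Fbl), Nop56, Nop58 and Snu13. Box H/ACA snoRNAs guide pseudouridylation and work with dyskerin (Dkc1), Gar1, Nhp2 and Nop10. In mammals most lie in introns of host genes, many of which encode ribosomal proteins or are non-coding hosts such as Gas5 and the Snhg genes, and they are trimmed out of the excised intron after splicing. MicroRNAs are cut from hairpins by Drosha with Dgcr8 and then by Dicer1, and pair with messenger RNA through a seed at bases 2 to 8. Counts per gene do not separate the finished short RNA from unspliced host transcript that covers the same bases.

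The snoRNAs that carry the comparisons below are printed 5′ to 3′ on their own strand, from the GENCODE vM21 transcripts of GRCm38. In box C/D snoRNAs the capitals mark TGATG, the core of box C, within the first 25 bases and CTGA, box D, within the last 25. In box H/ACA snoRNAs they mark ACA within the last 10 bases. Snord68 is shown because it had the largest fitted change, the 4 snoRNAs of Rpl13a because they share a host and changed unequally, Snora3 as a box H/ACA snoRNA in a ribosomal protein gene, and Snora31 because the doxycycline effect on it differed between days.
Snord68: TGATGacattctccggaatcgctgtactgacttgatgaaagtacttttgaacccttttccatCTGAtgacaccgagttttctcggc
Snord32a: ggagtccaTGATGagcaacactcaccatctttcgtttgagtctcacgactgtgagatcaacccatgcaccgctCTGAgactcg
Snord33: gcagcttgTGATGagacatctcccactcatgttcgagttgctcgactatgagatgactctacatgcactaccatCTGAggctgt
Snord34: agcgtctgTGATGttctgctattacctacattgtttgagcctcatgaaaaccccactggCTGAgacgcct
Snord35a: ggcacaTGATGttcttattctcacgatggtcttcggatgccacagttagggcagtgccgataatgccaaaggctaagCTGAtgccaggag
Snora3: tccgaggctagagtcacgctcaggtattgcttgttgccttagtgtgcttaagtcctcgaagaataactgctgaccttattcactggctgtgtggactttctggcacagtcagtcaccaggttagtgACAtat
Snora31: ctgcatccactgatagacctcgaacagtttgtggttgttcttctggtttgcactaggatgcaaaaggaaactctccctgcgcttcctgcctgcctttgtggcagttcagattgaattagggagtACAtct
Snord68 lies at chr8:123103038-123103123 on the plus strand, within Rpl13. Snord32a (chr7:45127382-45127464), Snord33 (chr7:45126864-45126947), Snord34 (chr7:45126601-45126670) and Snord35a (chr7:45126346-45126435) follow each other on the minus strand within Rpl13a. Snora3 lies at chr7:109520120-109520251 within Rpl27a and Snora31 at chr14:75847905-75848034 within Tpt1, both on the plus strand. Searched on the transcript strand alone, TGATG and CTGA in these windows were both found in 39 of the 46 box C/D snoRNAs (84.8%), in 0 of the 26 box H/ACA snoRNAs and in 0 of 23 microRNA hairpins. ACA in the last 10 bases was found in 24 of the 26 box H/ACA snoRNAs (92.3%), in 3 of the 46 box C/D snoRNAs and in 3 of the 23 microRNA hairpins.

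The mature microRNAs below are from RefSeq (GRCm38.p6), which held a mature sequence for 21 of the 24 microRNA genes, and the capitals mark the seed. miR-363-3p, miR-92a-3p, miR-25-3p and miR-93-5p are shown because the genes of related clusters moved in different directions. miR-17-5p, whose hairpin lies outside the total of 50, is shown for its seed. miR-290a-3p, miR-16-5p and miR-7a-5p are shown because their genes rose from few counts.
miR-363-3p: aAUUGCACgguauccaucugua
miR-92a-3p: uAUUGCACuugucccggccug
miR-25-3p: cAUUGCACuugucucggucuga
miR-93-5p: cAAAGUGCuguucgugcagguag
miR-17-5p: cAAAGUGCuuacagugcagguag
miR-290a-3p: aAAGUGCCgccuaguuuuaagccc
miR-16-5p: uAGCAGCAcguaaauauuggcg
miR-7a-5p: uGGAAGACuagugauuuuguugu
The first 3 share the seed AUUGCAC, and miR-93-5p and miR-17-5p share AAAGUGC. The arms printed for Mir363 and Mir92-2 lie at chrX:52741697-52741718 and chrX:52741854-52741874, both on the minus strand. Those of Mir25 and Mir93 lie at chr5:138165332-138165353 and chr5:138165574-138165596, on the minus strand within Mcm7. The microRNA gene with most counts, Mir682, lies in an exon of the processed pseudogene Gm4149 on the same strand. It is shown as its 96-base hairpin from GENCODE (chr13:75645046-75645141, plus strand).
Mir682: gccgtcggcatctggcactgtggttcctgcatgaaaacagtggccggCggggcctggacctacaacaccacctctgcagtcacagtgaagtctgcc
The capital marks the single base that differs from the messenger RNA of the ribosomal protein gene Rpl37a over these bases.

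Library totals ran from 18074070 to 36068329 counts, and the 3 counts that a count of 0 allows equal 0.0824 to 0.164 CPM (counts scaled to the library size after TMM normalization). Such limits and the intervals given below cover counting error only. Of the 96 genes, 89 passed the filter on low counts and were tested among 14548 genes by edgeR's quasi-likelihood test with Benjamini-Hochberg adjustment at 0.05. The 7 not tested were Snord42a, Snord88c, Snord98, Snora69, Mir93, Mir92-2 and Mir343. The Flk1-positive libraries carried Kdr at 1008 and 986 CPM, against 405 and 433 CPM in doxycycline-treated libraries of day 2.5. The summed level of 6 precursor genes (Kdr, Etv2, Tal1, Lmo2, Cdh5 and Pecam1) was 2617 and 2560 CPM, against 1198 and 1226 CPM. Of these 6, Kdr, Tal1 and Lmo2 rose, Pecam1 fell (-0.63 ± 0.23, adjusted p = 0.038), and the median log2 fold change was 0.59. The Pecam1 call was lost with limma-voom (0.0635) and without doxycycline day 2.5 replicate 2, untreated day 2 replicate 2 or either Flk1-positive library (0.051 to 0.308). The doxycycline libraries of day 2 stood apart as a pair, with a chi-square per gene between them of 32.0 where the other pairs had 3.33 to 9.65.

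Summed over their members, both snoRNA classes were highest in Flk1-positive libraries. The microRNA genes, with most counts in Mir682, were not, but without Mir682 and Mir17hg they were. The 46 box C/D snoRNAs summed to 175 and 186 CPM in Flk1-positive libraries and to 44.6 and 38 CPM in doxycycline-treated libraries of day 2.5, a ratio of 4.37 between the means. They summed to 49.6 and 55.3 CPM in untreated libraries of day 2.5, to 94.8 and 59.9 CPM with doxycycline at day 2 and to 84.9 and 73.7 CPM untreated at day 2. The lower Flk1-positive library thus stood above each of the 8 others, and the doxycycline libraries of day 2.5 were the lowest.

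The 26 box H/ACA snoRNAs summed to 104 and 114 CPM in Flk1-positive libraries and to 41.5 and 32.7 CPM in doxycycline-treated libraries of day 2.5, a ratio of 2.95. The 6 other libraries lay between 35 and 56.8 CPM. Here the Flk1-positive pair stood apart and the other 4 groups overlapped. The 24 microRNA genes summed to 446 and 425 CPM in Flk1-positive libraries and to 196 and 188 CPM in doxycycline-treated libraries of day 2.5, a ratio of 2.27, but their sums were 520 and 327 CPM with doxycycline at day 2 and 456 CPM in each untreated library of day 2. Mir682 alone held 79.0% of all microRNA counts. Without Mir682 and Mir17hg the remaining 22 microRNA genes summed to 28.0 and 25.4 CPM in Flk1-positive libraries and to 12.2 and 13.4 CPM in doxycycline-treated libraries of day 2.5, and the 6 others lay between 12.9 and 19.2 CPM. With 2 libraries against 2, an exact two-sided permutation test of such a sum cannot go below p = 0.333, so the sums are given without a test.

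**Figure D1:**
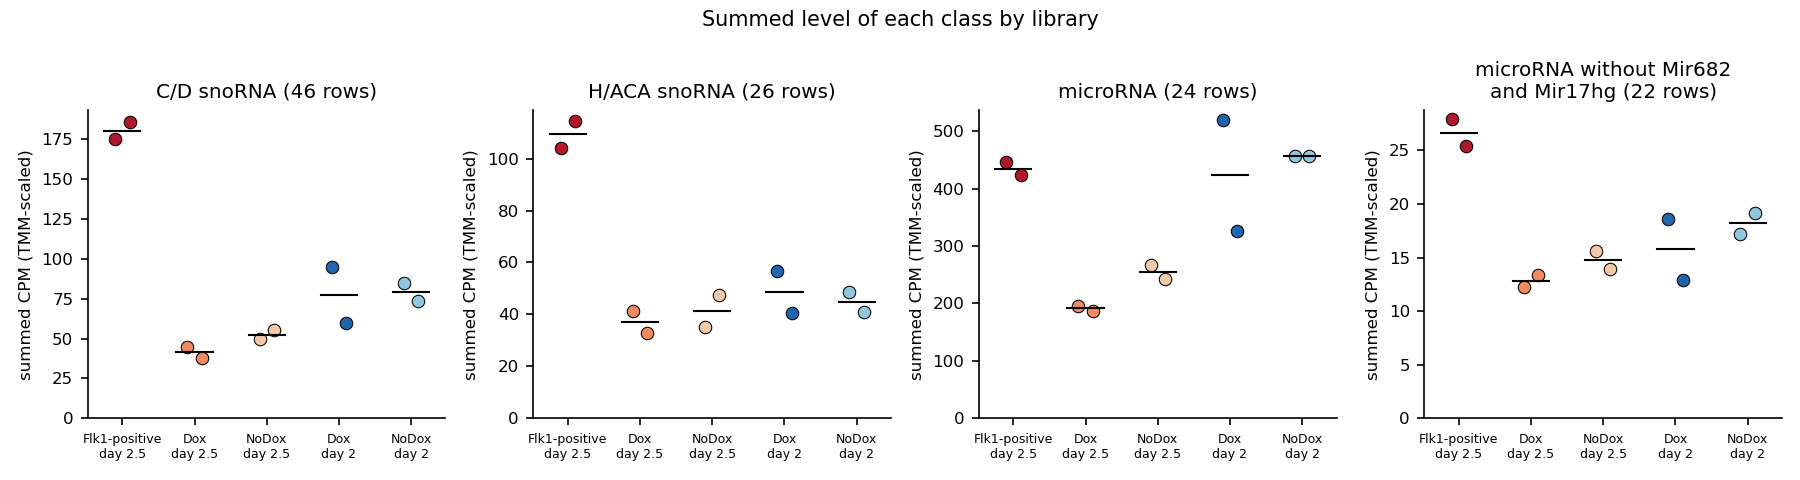
Summed CPM of the box C/D snoRNAs, the box H/ACA snoRNAs, the microRNA genes and the microRNA genes without Mir682 and Mir17hg, with 1 point per library in each of the 5 groups and a bar at the mean of the 2. Flk1-positive libraries lie above all others for both snoRNA classes (175 and 186 CPM for box C/D), while for all microRNA genes 3 of the 4 day 2 libraries stand higher (456 to 520 CPM) and the fourth lower (327 CPM).

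Taken gene by gene over all 10 libraries, both Flk1-positive libraries lay above all 8 others for 29 of 46 box C/D snoRNAs (63.0%), 20 of 26 box H/ACA snoRNAs (76.9%) and 11 of 24 microRNA genes (45.8%). Of all 14548 genes tested, 22.3% did so. Both lay below all others for 3 microRNA genes (12.5%), against 20.8% of all genes tested, and for 0 snoRNAs. The genes were chosen on totals that include the Flk1-positive libraries, so these shares are a description. The class counts also include genes below the low-count filter, which the share of all genes tested does not. Without those libraries 42 box C/D snoRNAs, 24 box H/ACA snoRNAs and 19 microRNA genes reached the total. The share of these lying above all others was not computed.

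The Flk1-positive libraries were compared with the other doxycycline-treated libraries of the same day. Among box C/D snoRNAs, 33 of 43 tested rose and none of the 43 had a fold change below 1, with a median log2 fold change of 2.37. Of all genes tested, 20.5% were called higher and 21.3% lower, with a median log2 fold change of -0.004. The genes were chosen with this rise known and with the Flk1-positive libraries inside the total, so these counts are a description. Among the 85 genes that reached 50 counts without those libraries, 58 rose and 1 fell, with a median of 1.84 over the 83 tested.

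Snord96a, a box C/D snoRNA within Gnb2l1 (Rack1), where it lies in an exon of a minor annotated transcript, had the highest mean level in its class, with 34.7 and 36.1 CPM in Flk1-positive libraries and 6.76 and 6.56 CPM in doxycycline-treated libraries of day 2.5. Its log2 fold change was 2.41 ± 0.20 (SE; edgeR quasi-likelihood, adjusted p = 2.9e-07). Its 6 other libraries lay between 8.58 and 15.7 CPM, so the Flk1-positive pair stood clear of all of them. Snord22, in Snhg1, had 26.5 and 31.8 CPM in Flk1-positive libraries against 8.27 and 5.29 CPM in doxycycline-treated ones (2.10 ± 0.23, adjusted p = 5.1e-06). Snord2, in the translation factor gene Eif4a2, had 14.6 and 12.1 CPM against 1.92 and 1.65 CPM (2.90 ± 0.26, adjusted p = 6.1e-07). In each of these 3 the groups did not overlap. Of all 14548 genes tested, 5452 lay apart higher and 5529 lower in this comparison. Snord47, in Gas5, had 7.93 and 8.85 CPM against 1.07 and 0.98 CPM (3.02 ± 0.57), and Snord52, in a non-coding host, had 6.32 and 7.84 CPM against 0.99 and 0.72 CPM (3.04 ± 0.36). Snord12, in a non-coding host, and Snord49a also rose, by 2.47 ± 0.42 and 2.07 ± 0.31 on the log2 scale.

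The largest fitted changes were in snoRNAs with few counts. Snord68 had 46 and 29 counts in Flk1-positive libraries and 2 and 0 counts in doxycycline-treated libraries of day 2.5, a ratio of 61.8 at the scaled library sizes (exact 95% counting interval 16.5 to 520; adjusted p = 0.0002). It had 6 and 17 counts untreated at day 2.5, 18 and 11 with doxycycline at day 2 and 34 and 11 untreated at day 2, so the doxycycline pair of day 2.5 was the low one. Snord33 changed by 3.41 ± 0.85, Snord34 by 3.40 ± 0.61, Snord15b by 3.25 ± 0.98 and Snord87 by 3.17 ± 0.51 on the log2 scale. The call of Snord33 was lost without doxycycline day 2.5 replicate 1 (adjusted p = 0.0548). That of Snord15b was lost without doxycycline day 2.5 replicate 1 or 2 (0.108 and 0.0564) and without Flk1-positive replicate 2 (0.145). Not every box C/D snoRNA moved this far. Snord104 stood at 4.75 and 3.34 CPM in Flk1-positive libraries against 2.86 and 2.19 CPM (0.68 ± 0.40, adjusted p = 0.18), and Snord64 at 1.90 and 0.90 against 1.26 and 1.47 CPM (0.06 ± 0.41, adjusted p = 0.93).

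Among box H/ACA snoRNAs, 19 of 25 tested rose and all 25 had a log2 fold change above 0, with a median of 2.10. Snora65, in Rpl12, was the most counted, with 24.5 and 25.1 CPM in Flk1-positive libraries against 14.3 and 11.8 CPM in doxycycline-treated ones of day 2.5 (0.92 ± 0.22, adjusted p = 0.0041), a call lost without doxycycline day 2.5 replicate 2 (0.0558). Snora81, in Eif4a2, had 15.4 and 22.7 CPM against 7.25 and 5.78 CPM (1.54 ± 0.26). Both pairs stood apart from the doxycycline pair, by less than in the leading box C/D snoRNAs. Snora61 and Snora52, in Snhg12 and Rplp2, rose by 2.30 ± 0.46 and 2.40 ± 0.37, and Snora68 and Snora28 by 2.14 ± 0.30 and 1.82 ± 0.32 on the log2 scale. Snora7a, in Rpl32, changed by 1.37 ± 0.35, a call lost without doxycycline day 2.5 replicate 2 (adjusted p = 0.0716) or Flk1-positive replicate 2 (0.0672).

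The largest changes in this class were in Snora44, Snora3, Snora41, Snora64 and Snora21. Snora3 had 3.96 and 4.13 CPM in Flk1-positive libraries, 0.11 and 0.55 CPM in doxycycline-treated libraries of day 2.5 and 1.48 and 0.58 CPM in untreated libraries of day 2.5. At day 2 it had 2.79 and 1.27 CPM with doxycycline and 1.95 and 1.75 CPM without. Its log2 fold change between the first 2 groups was 3.61 ± 0.60 (adjusted p = 0.00024). Snora44, in Snhg12, had 1.45 and 1.32 CPM in Flk1-positive libraries against 0.11 and 0.03 CPM (4.21 ± 0.85), and Snora41, in Eef1b2, had 5.37 and 4.08 against 0.71 and 0.12 CPM (3.48 ± 0.61). Both stood lowest in doxycycline-treated libraries of day 2.5, in the means of the 5 groups. Snora64 and Snora21 changed by 3.32 ± 0.85 and 3.0 ± 0.76. Their calls were lost without doxycycline day 2.5 replicate 2 (adjusted p = 0.0655 and 0.05), and that of Snora21 also without Flk1-positive replicate 1 (0.0554). The 6 not called were Snora78, Snora43, Snora23, Snora17, Snora2b and Snora75, with log2 fold changes of 0.33, 0.53, 0.68, 0.95, 1.12 and 1.55.

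Among the 21 microRNA genes tested, 11 rose and 1 fell, with a median log2 fold change of 1.31, 17 above 0 and 4 below. The shares over all genes tested were 20.5% called higher and 21.3% called lower. The choice of microRNA genes also rested on totals that include the Flk1-positive libraries. Of the 18 tested that reached the total without those libraries, 8 rose and 1 fell, with a median of 1.26. Mir682 had 306 and 271 CPM in Flk1-positive libraries against 149 and 140 CPM in doxycycline-treated libraries of day 2.5 (1.0 ± 0.18, adjusted p = 0.00064). Its levels were 225 and 188 CPM untreated at day 2.5, 455 and 275 CPM with doxycycline at day 2 and 393 and 394 CPM untreated at day 2. The Flk1-positive level was therefore not the highest of the 5 groups. Mir682 and Rpl37a differ at a single base of the hairpin, and reads that do not cover that base cannot be told apart. In addition, 13 annotated genes elsewhere hold a stretch of at least 60 bases with at least 95% identity to the hairpin. The Rpl37a gene itself stood at 9.50 and 7.84 CPM in Flk1-positive libraries against 7.69 and 6.70 CPM (0.27 ± 0.22, adjusted p = 0.34). The microRNA genes Mir703, Mir684-1 and Mir1949 had such near copies too, that of Mir703 in Eef1a1 and that of Mir684-1 in Sumo2. So did 9 box H/ACA and 3 box C/D snoRNAs, among them Snora65, Snora81, Snora3, Snora41, Snora21, Snora68 and Snord95. How reads shared with near copies were counted is not stated. Mir703 and Mir1949 rose by 1.21 ± 0.37 and 1.77 ± 0.41, and Mir684-1 had a log2 fold change of -0.87 ± 0.49 (adjusted p = 0.17). The call of Mir703 was lost on leaving out any of the 4 compared libraries. Mir186, in Zranb2, was called higher, with 30 and 18 counts in Flk1-positive libraries against 6 and 12. Its call was lost without any of those 4 libraries too. Mir707 stood at 1.16 and 0.53 CPM in Flk1-positive libraries against 1.15 and 2.02 CPM, and was not called. Mir3091 stood at 1.45 and 0.95 against 0.52 and 0.49 CPM, was not called, and had 1.39 and 1.91 CPM untreated at day 2.

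Mir17hg is the long host transcript of the Mir17 to Mir92 cluster and is no hairpin. Its annotated place spans 2339 bases of the genome (chr14:115044390-115046728). That span does not reach miR-17-5p of the cluster (chr14:115043684-115043706). It stood at 112 and 128 CPM in Flk1-positive libraries and at 35.4 and 34.1 CPM in doxycycline-treated libraries of day 2.5, and rose by 1.78 ± 0.15 on the log2 scale (adjusted p = 4.5e-07). The 6 other libraries lay between 26.9 and 46.2 CPM. The 6 hairpins of its own cluster held 16 and 22 counts in Flk1-positive libraries, 3 and 6 in doxycycline-treated ones of day 2.5, 0 and 1 in untreated ones of day 2.5, 0 and 1 with doxycycline at day 2 and 12 and 6 untreated at day 2. None of them reached a total of 50.

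The copies of this cluster went different ways. Mir25, of the Mir106b to Mir25 cluster in Mcm7, had 57 and 45 counts in Flk1-positive libraries, 20 and 24 in doxycycline-treated and 7 and 8 in untreated libraries of day 2.5. It rose by 1.92 ± 0.52 against doxycycline (adjusted p = 0.0083), a call lost without doxycycline day 2.5 replicate 1 (0.0612), while its host Mcm7, which encodes a replication licensing factor, fell by 0.36 ± 0.08 on the log2 scale (adjusted p = 0.0028). Mir93, of the same cluster, was below the filter with 16 and 6 counts in Flk1-positive libraries against 10 and 7, a ratio of 2.13 (exact 95% counting interval 1.08 to 4.28). Mir363, of the X-linked Mir106a to Mir363 cluster, was the microRNA gene that fell. It had 1 and 3 counts in Flk1-positive libraries and 21 and 24 counts in doxycycline-treated libraries of day 2.5 (-2.69 ± 0.85, adjusted p = 0.02), a call lost without doxycycline day 2.5 replicate 2 (0.0684) or Flk1-positive replicate 1 (0.173). It had 46 and 44 counts untreated at day 2.5, 21 and 6 with doxycycline at day 2 and 35 and 15 untreated at day 2, so the Flk1-positive pair lay below all the others. Mir92-2, from the same X-linked cluster, had 0 and 0 counts in Flk1-positive libraries against 13 and 6. That was 3.84-fold lower with the Flk1-positive pair set to a floor of 3 counts. By the exact 95% counting interval it was at least 2.83-fold lower. The seed that miR-363-3p and miR-92a-3p share with miR-25-3p was thus carried by genes that were low and by a gene that was high in the same libraries.

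**Figure D2:**
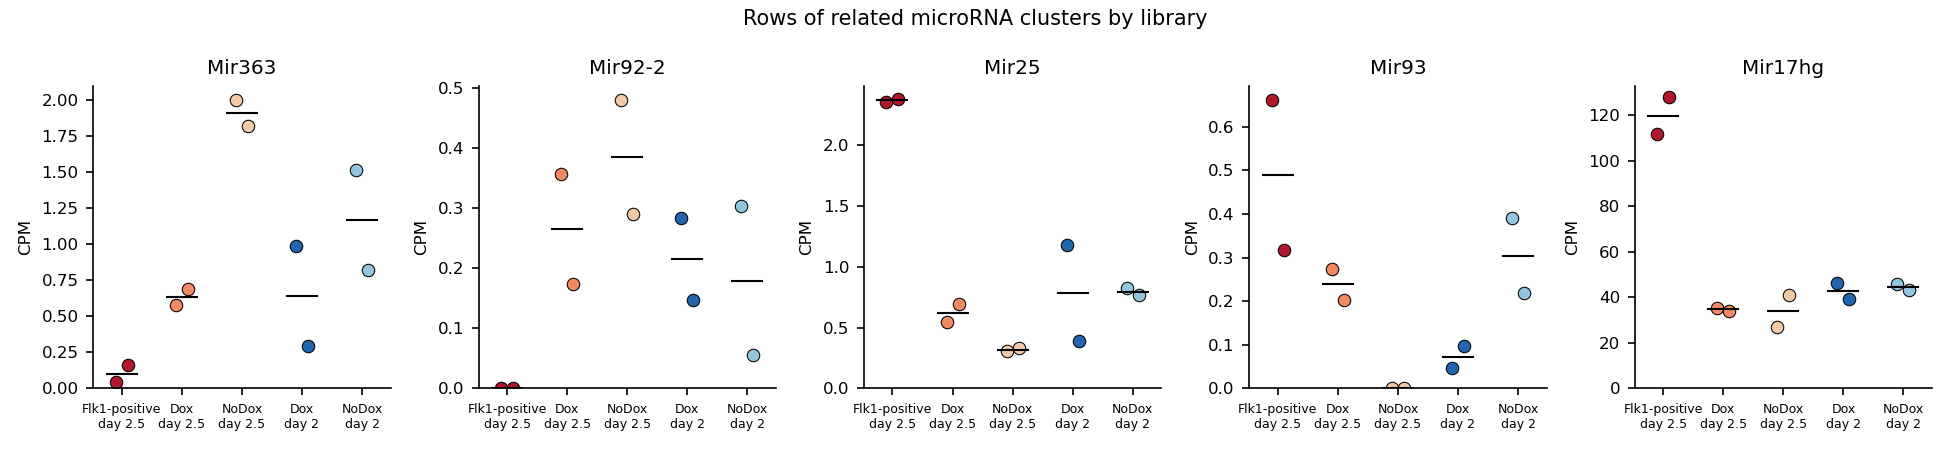
CPM of Mir363, Mir92-2, Mir25, Mir93 and Mir17hg in each library of the 5 groups, with a bar at the mean of the 2. Mir363 and Mir92-2 are lowest in the Flk1-positive pair (1 and 3 counts, and 0 and 0), where Mir25 and Mir17hg are highest.

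Other microRNA genes that rose had few counts. Mir290, of the Mir290 to Mir295 family expressed in embryonic stem cells, had 20 and 20 counts in Flk1-positive libraries and 6 and 0 in doxycycline-treated libraries of day 2.5 (3.41 ± 0.95, adjusted p = 0.01). It had 0 and 0 counts untreated at day 2.5, 4 and 3 with doxycycline at day 2 and 3 and 1 untreated at day 2. Mir16-1, in Dleu2, had 19 and 13 counts against 6 and 0 (3.06 ± 0.94), and Mir7-1, in Hnrnpk, had 33 and 10 against 4 and 2 (3.43 ± 0.88). The calls of these 3 depended on single libraries. Without doxycycline day 2.5 replicate 2 their adjusted p was 0.0817, 0.123 and 0.0585. Without Flk1-positive replicate 1 it was 0.0906 for Mir16-1 and 0.112 for Mir7-1, and without Flk1-positive replicate 2 it was 0.0647 for Mir290 and 0.0591 for Mir16-1. The remaining 6 members of the Mir290 family in the table had 0 counts in every library. The 5 hairpins of the Mir302 cluster of pluripotent cells held 56 counts in all, 11 Mirlet7 genes 63, 9 endothelial microRNA genes 18, 8 blood microRNA genes 5 and 3 Mir34 genes 11, over the 10 libraries together. None of these groups held a gene with a total of 50. Mirlet7d had 14 and 8 counts in Flk1-positive libraries against 0 and 0 in doxycycline-treated libraries of day 2.5, at least 12.1-fold higher against a floor of 3 counts over the pair (edgeR adjusted p = 0.0038). Mir126 had 11 and 4 counts against 0 and 2, and 0 in each of the 6 other libraries, and did not pass the filter on low counts. Both were named after their values were seen.

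**Figure D3:**
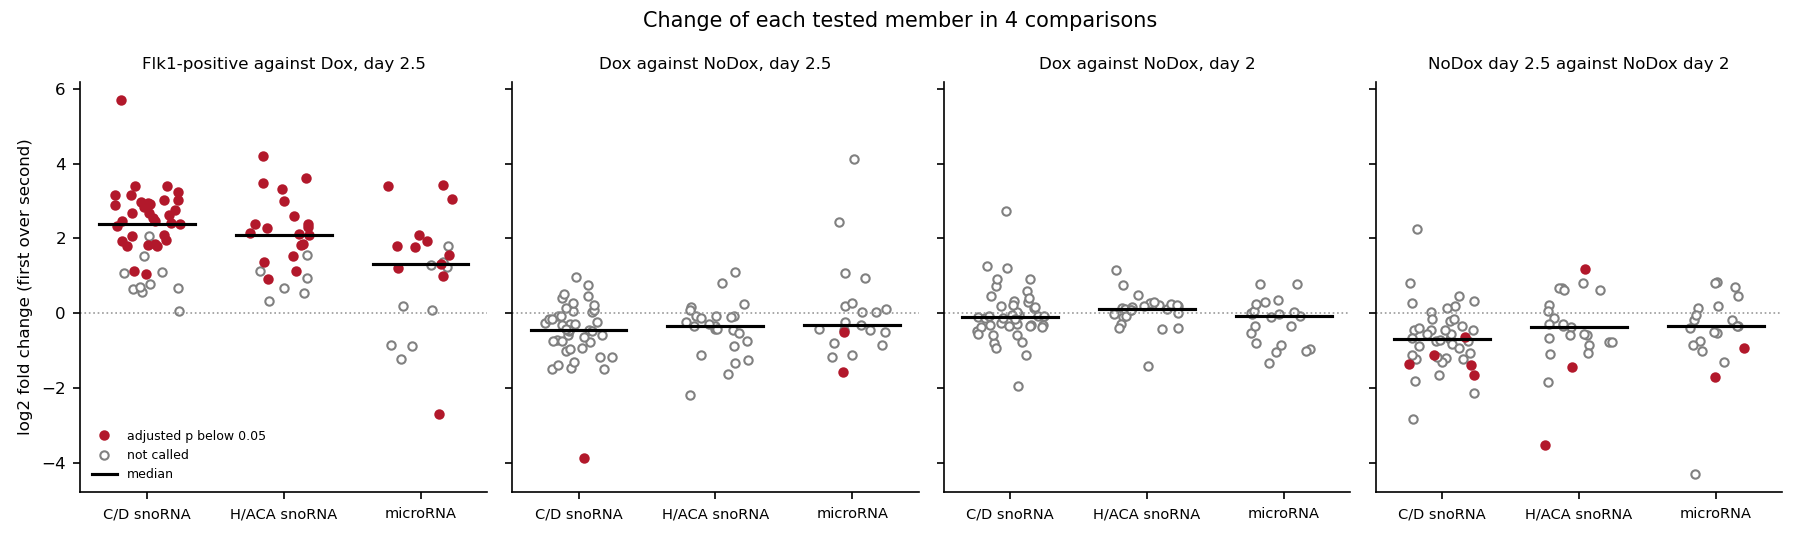
Log2 fold changes of the tested genes of each class in 4 comparisons, with 1 point per gene, filled red where the adjusted p was below 0.05 and open otherwise, and a line at the median. In Flk1-positive against doxycycline libraries the snoRNA points lie above 0 with medians of 2.37 and 2.10, while the points of the other comparisons lie around or below 0. The outlying open microRNA point in the comparisons with untreated day 2.5 libraries is Mir290, which had 0 counts there.

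The host genes allow the short RNAs to be set beside the transcripts that carry them. A host in the table was found for 82 of the 96 genes, in 64 host genes, and 29 snoRNAs lay in 22 ribosomal protein genes. Of 40 protein-coding snoRNA hosts tested, 17 rose and 5 fell in Flk1-positive against doxycycline libraries, with a median log2 fold change of 0.37, where their 47 tested snoRNAs had a median of 2.10. The snoRNA's log2 fold change was above its host's in 42 of 47 pairs. All 8 non-coding snoRNA hosts tested rose, with a median of 1.57, and their 15 tested snoRNAs had a median of 2.47, above the host in 14 of 14 pairs. Of 13 protein-coding microRNA hosts, 2 rose and 3 fell with a median of -0.08, close to the 20.5% and 21.3% of all genes tested, where their 12 tested microRNA genes had a median of 1.30.

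The snoRNAs of Rpl13a show how far members of 1 host differed. Snord32a had 1.16 and 1.06 CPM in Flk1-positive libraries against 0.25 and 0.09 CPM in doxycycline-treated libraries of day 2.5 (2.69 ± 0.73). Snord33 had 0.66 and 0.64 CPM against 0.03 and 0.09 CPM, and Snord34 had 2.44 and 2.70 CPM against 0.33 and 0.14 CPM. The groups overlapped in none of these 3, as in 5452 of all 14548 genes tested in this direction. Snord35a did not overlap either but lay closer, and stood at 1.65 and 2.12 CPM against 1.18 and 1.21 CPM (0.65 ± 0.59, adjusted p = 0.41), and Rpl13a itself at 344 and 290 CPM against 250 and 232 CPM (0.40 ± 0.21, adjusted p = 0.16). The call of Snord32a was lost without doxycycline day 2.5 replicate 2 (0.0907) or Flk1-positive replicate 1 (0.0536), and the difference between Snord35a and the other 3 was not tested.

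**Figure D4:**
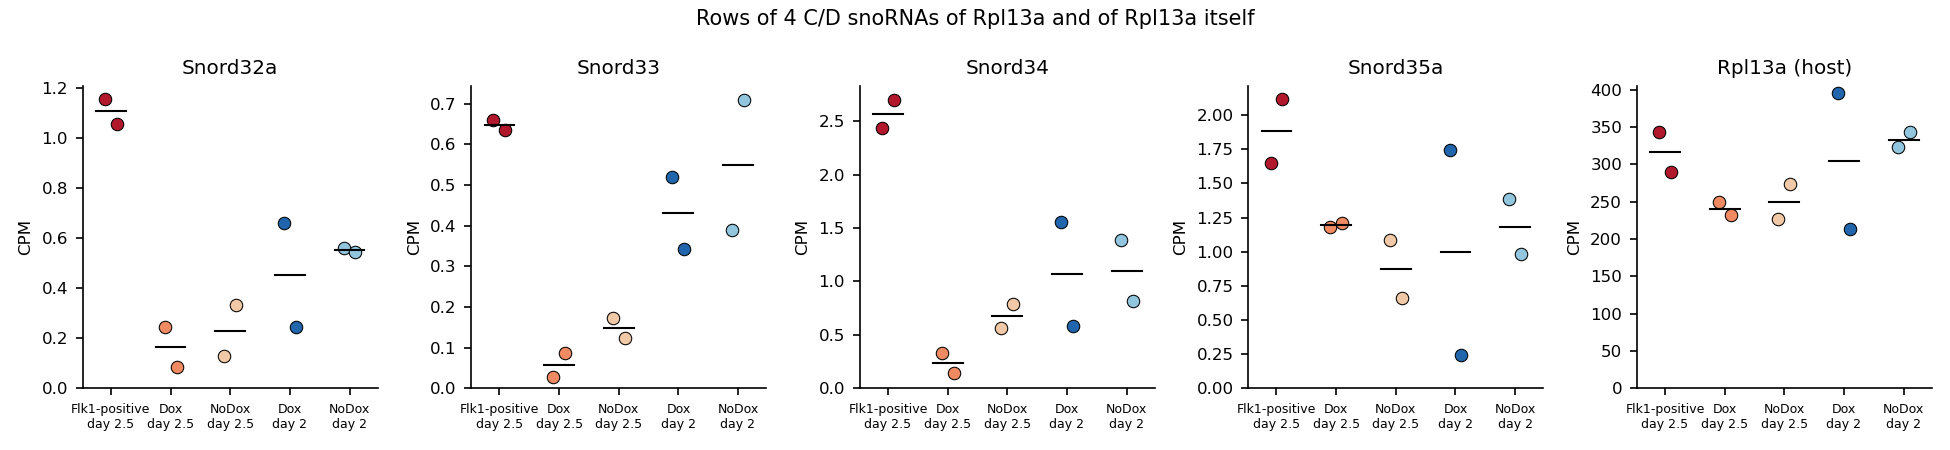
CPM of Snord32a, Snord33, Snord34, Snord35a and their host Rpl13a in each library of the 5 groups, with a bar at the mean of the 2. The 2 Flk1-positive libraries stand above the 2 doxycycline libraries of day 2.5 for each snoRNA, by most for Snord33 and Snord34 and by least for Snord35a (1.65 and 2.12 against 1.18 and 1.21 CPM).

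Other hosts showed the same kind of gap. Rpl13, the host of Snord68, had a log2 fold change of 0.35 ± 0.20 (adjusted p = 0.18). Gnb2l1 had 0.01 where its snoRNAs Snord95 and Snord96a had 1.79 and 2.41, and Eif4a2 had 0.84 where Snora81 and Snord2 had 1.54 and 2.90. Hnrnpk, which encodes an RNA-binding protein and carries Mir7-1, had 0.02. The call of Snord95 was lost on leaving out any of the 4 compared libraries (adjusted p between 0.0651 and 0.233) and without either untreated library of day 2 (0.0607 and 0.0555). Host and snoRNA could also pass the test in opposite directions, as where Rpsa fell by 1.35 ± 0.13 and Snora62 rose by 2.10 ± 0.68. The call of Snora62 was lost on leaving out any of the 4 compared libraries (adjusted p between 0.0622 and 0.129). Hosts with a larger log2 fold change than their snoRNA were Rpl12 (1.64, against 0.92 for Snora65), Rpl23a (1.48, against 0.70 for Snord42b) and Tpt1 (1.39, against 1.12 for Snora31), besides Rpl3 with Snord43 and Rpl17 with Snord58b. Counting a single containing gene for each, 22 box C/D and 16 box H/ACA snoRNAs lie in an annotated exon of some transcript of it. By other containing genes, Snord68 (in Rpl13) and Snora74a do so too. Reads of the 2 genes cannot be told apart there. Genes on the other strand are overlapped by 5 snoRNAs. Whether those reads can be told apart depends on the strand setting, which is not stated.

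**Figure D5:**
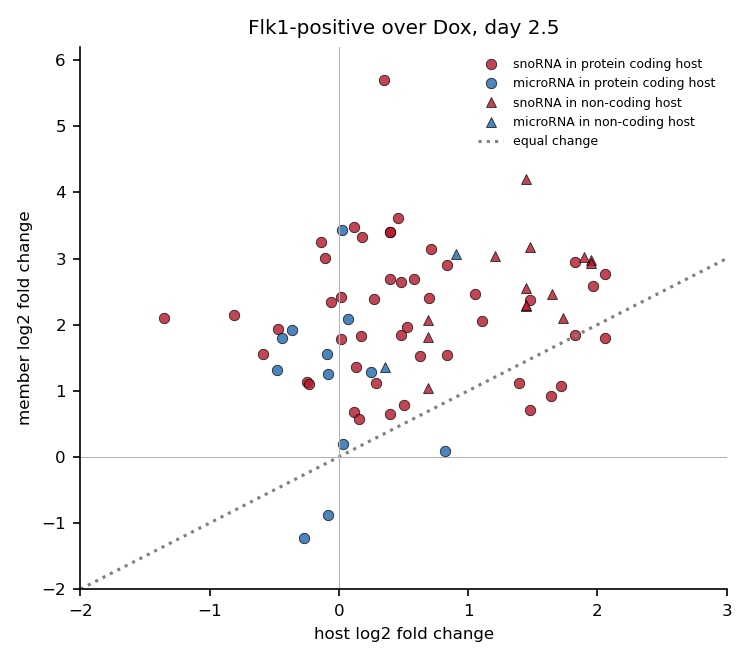
Log2 fold change of each snoRNA or microRNA gene against that of its host gene, Flk1-positive against doxycycline libraries of day 2.5, with 1 point per pair and a dotted line where both change equally. Most points lie above the line, at host values near 0 for protein-coding hosts (median 0.37) and higher for non-coding hosts (median 1.57).

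Among 19 listed non-coding snoRNA host transcripts, 13 were in the table and 12 were tested, of which 11 rose. Gas5 stood at 318 and 320 CPM in Flk1-positive libraries against 92.2 and 79.0 CPM in doxycycline-treated ones (1.90 ± 0.17, adjusted p = 1.3e-06), and Snhg11 and Snhg1 changed by 2.20 ± 0.11 and 1.74 ± 0.15. Snhg8 did not pass (0.06 ± 0.20). Of 8 proteins of the snoRNA particle tested, Nop56 rose (0.58 ± 0.09) and Nhp2, Dkc1, Nop58 and Gar1 fell (-0.81 ± 0.11, -0.53 ± 0.11, -0.37 ± 0.09 and -0.27 ± 0.10), with Fbl at -0.23 ± 0.14 and a median of -0.25. Of 13 assembly factors, Znhit3 and Wrap53 rose (1.32 ± 0.27 and 0.62 ± 0.15), 4 fell, and the median was -0.03. Of 14 microRNA processing genes, the helicase Ddx17, the Dicer partner Tarbp2 and the let-7 inhibitor Lin28b rose (0.80 ± 0.08, 0.81 ± 0.16 and 0.51 ± 0.11). In the same list Drosha, Lin28a and the exonuclease Dis3l2 fell (-0.54 ± 0.11, -0.59 ± 0.08 and -0.41 ± 0.12). Of all genes tested, 20.5% were called higher and 21.3% lower, so that the counts of assembly factors (2 and 4 of 13) and of processing genes (3 and 3 of 14) are no result about those lists.

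The Flk1-positive label, and whatever handling of cells and RNA went with it, sit on the same 2 libraries, so a change in the cells and a change in how short or unspliced RNA entered the library cannot be told apart by this design. Several measures that bear on handling can be set beside the rise. Among genes other than these 96, the 25 with at most 500 bases of exon had a median log2 fold change of 0.23 (5 rose and 2 fell), 243 with 500 to 1000 bases had -0.05 and 5622 with over 5000 bases had 0.02. The box C/D and box H/ACA snoRNAs had median lengths of 68 and 122 bases, and the shortest class is not limited to that size. Whether length bears on the rise was not tested. Across the snoRNAs and microRNA genes themselves, Spearman's rank correlation of length with log2 fold change was 0.03 over 43 box C/D snoRNAs, -0.33 over 25 box H/ACA snoRNAs and 0.21 over 21 microRNA genes, all from the same libraries.

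Other short non-coding RNAs had too few counts to compare well. The 18 genes of Scarna and Rnu type with Rmrp, Rpph1, Terc and Vaultrc5 summed to 1.36 and 1.01 CPM in Flk1-positive libraries against 0.439 and 0.549 CPM in doxycycline-treated libraries of day 2.5, from 33 and 19 counts against 16 and 19. The replication-dependent histone messengers, which lack a poly(A) tail, summed to 18.3 and 14.1 CPM against 21.0 and 19.4 CPM. Of 22 tested, edgeR called 0, with 2 lower at an unadjusted p under 0.05, DESeq2 called 0 and limma-voom 1 lower. The histones thus stood no higher in the Flk1-positive pair. Malat1, a nuclear long non-coding RNA, rose, with 375 and 451 CPM against 136 and 116 CPM (1.71 ± 0.11, adjusted p = 3.1e-08), while Neat1 had a log2 fold change of -0.05 ± 0.25 and the ribosomal precursor Rn45s one of -0.34 ± 0.25 (adjusted p = 0.3), neither past the threshold.

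Markers of other cell types were set beside the rise as sums and gene by gene. Those of fibroblasts (Col1a1, Col1a2, Pdgfrb, Twist2 and Thy1) stood at 29.3 and 26.3 CPM in Flk1-positive libraries against 36.9 and 44.9 CPM in doxycycline-treated ones, with a median log2 fold change of -0.31. Of these 5, Thy1 was called lower, and Col1a2 higher in a call that 8 of the 10 omissions of a library removed. Those of leukocytes (Ptprc, Coro1a and Laptm5) stood at 88.6 and 76.7 against 41.3 and 40.1 CPM, with Ptprc, the defining one, at 0 counts in all 4 libraries and Coro1a called higher. Those of pluripotent cells (Pou5f1, Nanog, Sox2 and Zfp42) summed to 871 and 812 against 867 and 839 CPM, and most of each sum was Pou5f1 (0.19 ± 0.13, adjusted p = 0.24). Nanog, Sox2 and Zfp42 fell (-5.19 ± 0.17, -2.74 ± 0.13 and -0.98 ± 0.16), and the median of the 4 was -1.86. Those of the primitive streak (T, Mixl1, Eomes and Mesp1) summed to 739 and 710 against 806 and 780 CPM, where T rose by 0.63 ± 0.08 and Mixl1, Eomes and Mesp1 fell (median -1.39). Their part in the snoRNA levels was not tested.

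Doxycycline was then compared with no treatment at each day. At day 2.5 Snord68, Mir363 and Mir682 fell and no gene of the 3 classes rose, against 13.8% called lower and 16.1% called higher of all genes tested. DESeq2 called 0 higher and limma-voom 1, and at an unadjusted p under 0.05 there were 15 of the 89 in both directions together. The class medians were -0.46, -0.33 and -0.31 for box C/D snoRNAs, box H/ACA snoRNAs and microRNA genes, where all genes tested had 0.003. Snord68 had 2 and 0 counts with doxycycline and 6 and 17 without, 17.3-fold lower (exact 95% counting interval 4.28 to 152). Mir363 had 21 and 24 counts against 46 and 44 (-1.58 ± 0.57, adjusted p = 0.049), and Mir682 had 149 and 140 CPM against 225 and 188 CPM (-0.51 ± 0.18, adjusted p = 0.042). Each of these 3 calls rested on single libraries. That of Snord68 was lost without doxycycline replicate 2 (adjusted p = 0.0842) or untreated replicate 2 (0.126) of day 2.5. That of Mir363 ranged from 0.0503 to 0.18 without 1 of 7 libraries, namely each of the 4 compared, either untreated library of day 2 and Flk1-positive replicate 2, and was 0.0535 with the replicate block. That of Mir682 ranged from 0.0537 to 0.242 without doxycycline day 2.5 replicate 1 or 2, untreated day 2.5 replicate 1 or either untreated library of day 2, and was 0.056 with limma-voom. The count of 3 was 1 without doxycycline day 2.5 replicate 2 or either untreated library of day 2, and 6 without either doxycycline library of day 2. This comparison shares the doxycycline libraries of day 2.5 with that of the Flk1-positive samples.

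At day 2 edgeR called 0 of the 89 genes, as did DESeq2 and limma-voom, against 3.11% called higher and 1.56% called lower of all genes tested. At an unadjusted p under 0.05 there were 8. DESeq2 gave no adjusted p for 26 of the 89. The medians were -0.12, 0.11 and -0.06. The 2 doxycycline libraries of this day differed in the short RNAs as in the table as a whole. Replicate 1 was above replicate 2 in 70 of the 96 genes, and its class sums were 1.58, 1.40 and 1.59 times those of replicate 2. The Flk1-positive pair was split 45 to 50, with sums within 1.10 times of each other. Without doxycycline day 2 replicate 2, 4 of the genes were called higher, and without replicate 1, 2 were called lower.

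From day 2 to day 2.5 in untreated embryoid bodies, 9 genes fell and 1 rose, against 10.3% called lower and 9.22% called higher of all genes tested. The medians were -0.70, -0.38 and -0.34. Snord2 stood at 2.65 and 1.74 CPM at day 2.5 against 6.37 and 5.13 CPM at day 2 (-1.39 ± 0.27, adjusted p = 0.0028), and Snord100, in Rps12, at 0.91 and 1.08 against 3.07 and 3.27 CPM (-1.67 ± 0.39, adjusted p = 0.0088). Mir682 stood at 225 and 188 against 393 and 394 CPM (-0.93 ± 0.18, adjusted p = 0.0037). The pairs of these 3 did not overlap between the days, where 4486 of all 14548 genes tested lay apart higher and 5076 lower. Snord52, Snord16a, Snora28 and Mir3064 fell by 1.36 ± 0.38, 1.12 ± 0.34, 1.45 ± 0.36 and 1.72 ± 0.50, Snord96a by 0.64 ± 0.20, and Snora5c had 1 and 2 counts at day 2.5 against 21 and 12 at day 2, 12.5-fold lower (exact 95% counting interval 3.93 to 63.8). Snora31, in Tpt1, rose by 1.17 ± 0.36 (adjusted p = 0.034). The count of 9 moved with single libraries. It was 2 and 3 without untreated day 2 replicate 1 and 2, 4 and 1 without untreated day 2.5 replicate 1 and 2, and 15 without either doxycycline library of day 2. Without untreated day 2.5 replicate 2, 0 of the 10 calls named here was kept. The calls of Snord2 (adjusted p = 0.0571) and Mir682 (0.0568) were lost with the omission of that library alone, and that of Snord100 was lost without any of the 4 compared libraries (0.0514 to 0.0643). Those of Snord52, Snord16a, Snora28, Mir3064, Snord96a and Snora5c were each lost without at least 3 single libraries. The call of Snora31 was lost without either untreated library of day 2 (adjusted p = 0.0968 and 0.224), either of day 2.5 (0.0576 and 0.184) and with limma-voom (0.0647). Of the 40 protein-coding snoRNA hosts, 17 fell and 3 rose in the same comparison (median -0.36).

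The effect of doxycycline differed between the days for Snora31 and Snord42b, by the interaction term over all genes. Snora31 had 1.76 and 1.79 CPM with doxycycline against 2.13 and 2.61 CPM without at day 2.5, and 2.12 and 2.59 CPM against 1.21 and 0.87 CPM at day 2 (interaction -1.58 ± 0.49 on the log2 scale, adjusted p = 0.048). Snord42b, in Rpl23a, had 1.54 and 0.90 CPM against 2.26 and 2.36 CPM at day 2.5, and 3.26 and 2.88 CPM against 1.43 and 1.20 CPM at day 2 (-2.14 ± 0.53, adjusted p = 0.015). For both, the doxycycline pair lay below the untreated pair at day 2.5 and above it at day 2, and neither effect passed the test within a day. Pairs lay apart in the same direction in 4953 of 14548 genes tested at day 2.5 and in 3259 at day 2. The interaction of Snora31 was lost with limma-voom (adjusted p = 0.0671), with only the 4 groups concerned (0.0729), with the replicate block (0.0562) and without any library but doxycycline day 2 replicate 1 (0.0575 to 0.181). That of Snord42b was lost without untreated day 2 replicate 1 or 2 (0.0526 and 0.0682) or doxycycline day 2.5 replicate 2 (0.0727). Of all genes tested, 6.87% had a positive and 5.24% a negative interaction past the threshold.

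The count of 63 genes called higher in Flk1-positive libraries moved with single libraries. It was 38 without doxycycline day 2.5 replicate 2 and 41 without Flk1-positive replicate 2, and the tests then have 1 library in an arm, assumed to vary like the other groups. Mir363, the gene that fell, was not called without Flk1-positive replicate 1. In all, 31 of the 64 calls were made under every alternative tried, among them Snord96a, Snord22, Snord2, Snord68, Mir682 and Mir17hg.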

How the data were processed

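The 10 libraries of 5 groups (2 each) were analysed from the deposited table of raw counts per gene. The tools are TopHat, HTSeq and DESeq2 with mm10, per the submitters' processing notes; tool versions, annotation, strand setting and the treatment of multi-mapping reads are not stated there. The 92 spike-in entries, all at 0 counts, were left out. The test used edgeR 4.0.16 in R 4.3.3: filterByExpr (minimum count 10, minimum total 15), TMM scaling, and a quasi-likelihood fit with 1 mean per group over all 10 libraries (5 residual degrees of freedom), checked on simulated data. Alternatives were other scalings, no filter, DESeq2 1.42.0, limma-voom (limma 3.58.1), a replicate block, only the compared groups, other totals and each library left out. Log2 fold changes carry the standard error from the F statistic. Hosts and sequences come from GENCODE vM21 and RefSeq (GRCm38), and near copies from BLAST+ 2.17.0 (at least 60 bases at 95% identity). The genes named are the 8 with the highest mean CPM per class, up to 5 higher and 5 lower called per comparison and class with the largest fold change, listed microRNA clusters, and hosts and partner proteins of these; others, such as Snord35a, Snord64, Snord95, Snora62 and the genes not called, were named after their values were seen. Members and lists were chosen with earlier results of these data known. Levels are CPM of TMM-scaled library size. One host gene is not reported here.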

Additional observations from a re-analysis of the deposited data

Results flagged for a closer look

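The effect of doxycycline on Snora31 and on Snord42b differed between day 2.5 and day 2 by the test of the interaction itself (edgeR quasi-likelihood over all 14548 genes). The interaction, day 2.5 minus day 2, was -1.58 on the log2 scale for Snora31 (adjusted p = 0.048) and -2.14 for Snord42b (adjusted p = 0.015). The log2 fold change of Snora31 was -0.42 ± 0.33 at day 2.5 and 1.16 ± 0.36 at day 2, and that of Snord42b was -0.92 ± 0.37 and 1.21 ± 0.38. For both genes the doxycycline and untreated pairs did not overlap at either day. Among all 14548 genes, the doxycycline pair lay apart above in 5076 and below in 4953 at day 2.5. At day 2 these counts were 3259 and 2974. Neither call held under all alternatives, which were added after seeing the data. That of Snora31 was lost without 9 of the 10 single libraries and that of Snord42b without 3. The 2 doxycycline libraries of day 2 were those with a chi-square per gene of 32.0, whose part in this was not tested.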

How the results depend on the processing

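No called value of the 4 comparisons, and neither of the 2 interaction values, changed sign under the alternatives run for it; those for the interaction were added after seeing the data. The 63 genes called higher in Flk1-positive against doxycycline libraries were 38 to 62 with 1 library left out, and the 1 called lower was 0 to 2, and 2 with no filter. For doxycycline at day 2.5, the count of 0 higher was 1 with no filter or limma-voom and 0 to 2 with 1 library left out, and that of 3 lower was 5 with no filter and 1 to 6. For doxycycline at day 2, the count of 0 lower was 1 with no filter and 0 to 2 with 1 library left out, and that of 0 higher was 0 to 4. For untreated day 2.5 against day 2, the count of 1 higher was 2 with no filter, 0 with limma-voom and 0 to 1 with 1 library left out, and that of 9 lower was 15 with no filter and 1 to 15. The log2 ratio of the summed microRNA CPM, Flk1-positive over doxycycline, was 1.24 with library totals in place of TMM, against 1.18. The cause of these shifts was not tested. Scaling by DESeq2-type factors, or by TMM over other genes alone, kept 64 of the 64 calls in the first comparison, DESeq2 62 and no filter 61. Same-numbered libraries deviated together with correlations of 0.001, 0.007, -0.03 and 0.032, and no label says that the numbers pair samples. With the replicate block 62 genes were called higher in Flk1-positive libraries, 0 higher and 2 lower with doxycycline at day 2.5, 0 and 0 at day 2, and 1 higher and 10 lower at untreated day 2.5. Few counts limit most of these genes, and 3 counts equal 0.0824 to 0.164 CPM.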
